A study of Mus musculus with 24 samples.

Results

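The 10 genes described here encode the metallothioneins Mt1 and Mt2, haem oxygenase 1 (Hmox1), both subunits of glutamate-cysteine ligase (Gclc and Gclm), sulfiredoxin (Srxn1), cytosolic thioredoxin reductase (Txnrd1), mitochondrial superoxide dismutase (Sod2), catalase (Cat) and the secreted glutathione peroxidase Gpx3. They were matched by name in the gene column of a mouse expression array, and all 10 were present, as 12 probes, among 28237 genes tested. The list was chosen with earlier results of these data known. Counts of members beside shares of all genes are therefore descriptions and not tests of the list. Each gene had 1 probe except Hmox1 and Cat, which had 2. All 12 probes were well above background on all 24 arrays, and none was saturated.

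The enzymes of this group dispose of superoxide, hydrogen peroxide and oxidised thiols. Metallothioneins are small cysteine-rich proteins that bind zinc and copper, and their genes respond to metals through the transcription factor MTF1 and to glucocorticoids. The transcription factor NRF2, which KEAP1 holds in check, drives Hmox1, Gclc, Gclm, Srxn1 and Txnrd1 through antioxidant response elements, whereas BACH1 represses Hmox1. The heart has modest catalase activity, and its mitochondria are a main source of superoxide.

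Left ventricles came from 24 male mice, 1 array per mouse and 6 mice per group, in 4 groups: mG4H STZ, CON STZ, mG4H VEH and CON VEH. mG4H mice carried a transgene for the glucose transporter GLUT4 that could be induced in cardiomyocytes, and CON is the genotype that the labels set against it. STZ mice had been given streptozotocin, which destroys insulin-producing cells, at 55 mg/kg on 5 consecutive days, and VEH mice sodium citrate buffer. Diabetes preceded transgene induction by 2 weeks, and hearts were taken after a further 2 weeks. The labels name no promoter for the transgene and no age, and they say that siblings were spread over the groups without saying which mice these were. The series asks what added glucose uptake does to the diabetic heart.

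All levels below are log2 signal relative to the 75th percentile of the same array, so 1 unit is a 2-fold difference, and levels of different probes cannot be compared. Differences were tested with limma across all 28237 genes, with Benjamini-Hochberg adjusted p under 0.05 as the threshold. The 75th percentile of signal ranged between 370 and 583 over the arrays, and 58.5% to 76.3% of the spots were above background. Slides 1 to 3 held mice of all 4 groups, and slide 4, read on another scan day, held 1 mG4H VEH and 1 CON VEH mouse. Slc2a4, the mouse gene for GLUT4, differed by 0.20 ± 0.16 (SE) between mG4H STZ and CON STZ mice and by -0.20 ± 0.16 between mG4H VEH and CON VEH mice. Whether its probe can detect the transgene is not given in the sources used here, so it does not check the genotype labels. All 12 cardiomyocyte markers examined, such as Myh6 and Tnnt2, were above background on every array. In whole ventricle, fewer cells of a type and less RNA per cell cannot be told apart.

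To show the sequence next to members whose levels varied widely between STZ mice, the 250 bases before the RefSeq start of Mt2, Mt1 and Gclm are printed here (mouse build GRCm38.p6). Hmox1 varied more than Mt1 in mG4H STZ mice but is not among the windows used here. In Mt2 and Mt1, capitals mark matches to TGCNCNC on either strand, called the metal core here. This pattern is looser than the core of the metal response element, which takes only A or G after TGC. In Gclm, capitals mark the core of the antioxidant response element, TGACNNNGC, on either strand.
Mt2, chr8:94172368-94172617, plus strand: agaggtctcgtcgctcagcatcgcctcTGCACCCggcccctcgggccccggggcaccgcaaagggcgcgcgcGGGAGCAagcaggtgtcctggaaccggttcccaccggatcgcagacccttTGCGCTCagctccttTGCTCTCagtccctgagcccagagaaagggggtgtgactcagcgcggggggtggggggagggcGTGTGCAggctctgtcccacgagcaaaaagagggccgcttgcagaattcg
Mt1, chr8:94178839-94179088, plus strand: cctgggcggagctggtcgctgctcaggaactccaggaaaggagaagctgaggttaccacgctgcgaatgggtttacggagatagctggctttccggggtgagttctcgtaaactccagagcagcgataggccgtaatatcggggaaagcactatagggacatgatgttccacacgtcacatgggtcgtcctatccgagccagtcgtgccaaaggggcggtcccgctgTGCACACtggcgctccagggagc
Gclm, chr3:122245307-122245556, plus strand: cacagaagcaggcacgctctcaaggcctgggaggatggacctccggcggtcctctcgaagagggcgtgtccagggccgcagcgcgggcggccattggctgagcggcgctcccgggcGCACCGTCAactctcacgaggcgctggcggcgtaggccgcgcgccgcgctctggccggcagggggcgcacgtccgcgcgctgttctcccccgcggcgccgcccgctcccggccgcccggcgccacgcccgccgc

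The Mt2 window held 5 matches to the metal core, a number reached or passed by 0.344% of all 32851 promoter windows of this length. Among these matches, GGGAGCA, read on the minus strand, and TGCTCTC have T after TGC and so lack the stricter core. The share of windows with the stricter core was not counted. The Mt2 window also held 1 match to the antioxidant response element core, TGACTCAGC, 79 bases before the start and shown in lower case. The Mt1 window held 1 match to the metal core, as did many others: 44.413% of all windows held at least 1. Bases after the annotated start were not searched, so elements there would be missed. The Gclm window held 1 match to the antioxidant core, on the minus strand 134 bases before the start, against 10.161% of all windows with at least 1, and 2 matches to the metal core, 1 of which shares letters with the antioxidant core. RefSeq windows were found for 8 of the 10 genes, 10 windows in all. The windows of Sod2, Cat and Gpx3 had neither core, that of Srxn1 had 1 metal core, and of the 3 windows of Txnrd1 the second held 1 antioxidant core and the other two 1 metal core each. Near matches were not counted: the Srxn1 window also holds tgagtcagc, which has G where the antioxidant core has C. These are matches of letters and not sites of binding. Mt2 and Mt1 lie next to each other, 5315 bases apart with 0 other genes between them.

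In diabetic mice, catalase and Gpx3 rose in CON hearts, and the other members did not pass the test in either genotype, although several had larger mean differences. In mG4H mice, 0 of 10 members passed, against 0.266% of all genes in either direction, 0.0992% higher and 0.166% lower. At an unadjusted p under 0.05, the number was 6 of 10, against 14% of all genes. In CON mice, 2 of 10 members passed, both higher, against 3.96% of all genes in either direction, 1.66% higher and 2.29% lower, and at an unadjusted p under 0.05 the number was 7 of 10, against 14.3% of all genes. The median log2 difference over the 10 members was 0.58 in mG4H and 0.75 in CON mice, beside 0.06 and 0.03 over all genes. These counts and medians do not test the list, which was chosen with earlier results known and whose members mostly varied together. Sod2 was the 1 member whose mean was lower in STZ than in VEH mice, in both genotypes. The STZ comparisons of mG4H and of CON mice share no mouse, whereas the comparisons of genotype use the same mice again.

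**Figure D1:**
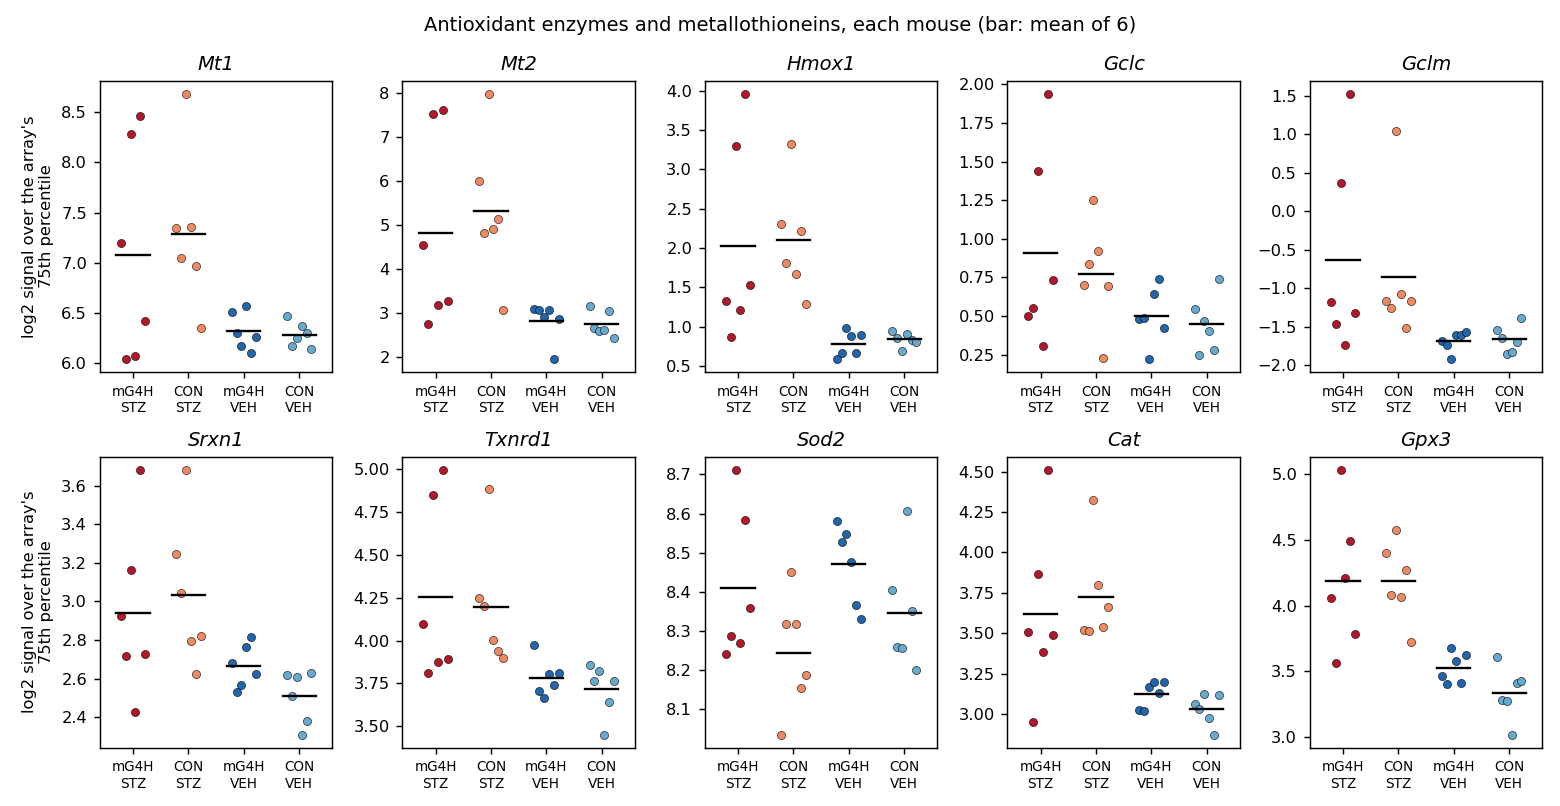
Level of each of the 10 genes in every mouse, as log2 signal over the 75th percentile of its array (vertical axis), in the groups mG4H STZ, CON STZ, mG4H VEH and CON VEH. Points are mice and bars are means of 6. Vehicle mice lie close together, whereas the STZ groups spread by an amount that differs between genes, most for Mt2 and least for Sod2. Mt2 lies between 2.75 and 7.98 in STZ mice and between 1.97 and 3.17 in VEH mice.

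Mt2 had the largest mean difference of the group and also the widest spread. Its level was 2.75 at the lowest, 3.93 at the median and 7.63 at the highest in mG4H STZ mice, against 1.97, 2.99 and 3.10 in mG4H VEH mice. In CON STZ mice, the lowest, median and highest levels were 3.08, 5.03 and 7.98, against 2.44, 2.65 and 3.17 in CON VEH mice. In each genotype 5 of 6 STZ mice were above all 6 VEH mice, so the groups overlapped by a single STZ mouse. The mean log2 difference was 1.99 ± 0.77 (SE, n = 6 per group) in mG4H mice, with adjusted p = 0.234 by limma, and 2.57 ± 0.77 in CON mice, with adjusted p = 0.0646. As a fold, the CON difference was 5.93, with a 95% interval on the log2 scale of 0.96 to 4.18. Mt2 in CON mice passed with quantile normalization, with normexp, in a fit of the CON groups alone and with weights per array (adjusted p between 0.0107 and 0.0489 by limma). It also passed without CON STZ mouse 6, mG4H STZ mouse 3 or mG4H STZ mouse 5 (adjusted p between 0.0251 and 0.0326).

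Mt1, the neighbouring metallothionein gene, differed less. Levels in mG4H STZ mice were 6.04, 6.81 and 8.47 at the lowest, median and highest, against 6.10, 6.28 and 6.57 in mG4H VEH mice. In CON STZ mice they were 6.35, 7.20 and 8.68, against 6.14, 6.27 and 6.47 in CON VEH mice. The mG4H STZ mice lay on both sides of the VEH range, 3 above it and 2 below it, whereas 5 of 6 CON STZ mice were above it. The difference was 0.76 ± 0.38 in mG4H mice (adjusted p = 0.372 by limma, n = 6 per group) and 1.01 ± 0.38 in CON mice (adjusted p = 0.164). Without mG4H STZ mouse 5, the mG4H difference of Mt1 was 0.48.

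Hmox1, which breaks haem down to biliverdin, iron and carbon monoxide, separated STZ from VEH mice completely in CON hearts. In mG4H STZ mice the levels of its brighter probe were 0.87, 1.43 and 3.95 at the lowest, median and highest, against 0.59, 0.78 and 0.98 in mG4H VEH mice. CON STZ mice were at 1.29, 2.02 and 3.32, against 0.69, 0.84 and 0.94 in CON VEH mice. All 6 CON STZ mice were above all 6 CON VEH mice, as was so for Txnrd1, Cat and Gpx3, 4 members in all, against 1.89% of all genes. In mG4H mice no member separated so, against 0.454% of all genes; for Hmox1, 5 of 6 STZ mice were above the VEH range. The log2 difference was 1.25 ± 0.41 in mG4H mice (adjusted p = 0.164 by limma, n = 6 per group) and 1.26 ± 0.41 in CON mice (adjusted p = 0.0898). The dimmer Hmox1 probe, read at chr8:77620797-77620856 of build mm9, gave 0.94 ± 0.29 in mG4H and 0.58 ± 0.29 in CON mice, so the size in CON mice depended on the probe.

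Glutamate-cysteine ligase makes the rate-limiting step of glutathione synthesis, with Gclc as the catalytic and Gclm as the modifier subunit. Gclm had levels of -1.74, -1.25 and 1.52 at the lowest, median and highest in mG4H STZ mice, against -1.92, -1.65 and -1.57 in mG4H VEH mice. CON STZ mice were at -1.52, -1.16 and 1.05, against -1.85, -1.67 and -1.38 in CON VEH mice. The high values came from 3 mice, at 0.37 and 1.52 in mG4H STZ mice 3 and 5 and 1.05 in CON STZ mouse 3, while the other 9 STZ mice stayed at -1.08 or below. The log2 difference was 1.05 ± 0.45 in mG4H mice (adjusted p = 0.286 by limma, n = 6 per group) and 0.81 ± 0.45 in CON mice (adjusted p = 0.472). Without CON STZ mouse 3, the CON difference was 0.42. Without mG4H STZ mouse 5, the mG4H difference was 0.62. Gclc was at 0.31, 0.64 and 1.93 at the lowest, median and highest in mG4H STZ mice, against 0.22, 0.49 and 0.74 in mG4H VEH mice. The CON STZ mice had 0.23, 0.77 and 1.25, against 0.25, 0.44 and 0.74 in CON VEH mice, so the groups overlapped in both genotypes. The Gclc difference was 0.41 ± 0.21 in mG4H mice and 0.33 ± 0.21 in CON mice, with adjusted p of 0.409 and 0.614 by limma, and leaving out mG4H STZ mouse 5 brought the mG4H value to 0.20.

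Txnrd1 reduces thioredoxin with NADPH, and Srxn1 repairs over-oxidised peroxiredoxins. Txnrd1 was at 3.81, 4.00 and 4.99 at the lowest, median and highest in mG4H STZ mice, against 3.67, 3.77 and 3.98 in mG4H VEH mice. In CON STZ mice it was at 3.90, 4.10 and 4.89, against 3.45, 3.76 and 3.86 in CON VEH mice. Although these CON groups did not overlap, the difference of 0.48 ± 0.19 did not pass the threshold (adjusted p = 0.200 by limma, n = 6 per group), nor did 0.47 ± 0.19 in mG4H mice (adjusted p = 0.256). Srxn1 lay between 2.43 and 3.68 in mG4H STZ mice and between 2.53 and 2.82 in mG4H VEH mice, with a difference of 0.28 ± 0.17 (adjusted p = 0.525 by limma), which was 0.13 without mG4H STZ mouse 5. It lay between 2.62 and 3.68 in CON STZ mice and between 2.31 and 2.63 in CON VEH mice, with a difference of 0.53 ± 0.17 (adjusted p = 0.101 by limma).

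Cat, the peroxisomal enzyme that splits hydrogen peroxide into water and oxygen, rose in CON hearts. Its level was 2.95, 3.50 and 4.51 at the lowest, median and highest in mG4H STZ mice, against 3.02, 3.15 and 3.20 in mG4H VEH mice. Levels in CON STZ mice were 3.52, 3.601 and 4.32, against 2.87, 3.05 and 3.12 in CON VEH mice. All CON STZ mice were above all CON VEH mice, and in mG4H mice 5 of 6 were above the VEH range with 1 mouse, mG4H STZ mouse 2, below it. The difference was 0.50 ± 0.18 in mG4H mice (adjusted p = 0.198 by limma, n = 6 per group) and 0.69 ± 0.18, a 1.62-fold rise, in CON mice (adjusted p = 0.0282). The CON call was lost on leaving out any of 5 mice, CON STZ mouse 3 (0.58, adjusted p = 0.0683 by limma) or CON VEH mouse 1, 2, 4 or 5 (adjusted p between 0.0508 and 0.0634). In mG4H mice the Cat difference was 0.32 without mG4H STZ mouse 5. The dimmer of its probes, whose letters span 3343 genomic bases at chr2:103297086-103300428 of build mm9 and so cross an intron, gave 0.64 ± 0.18 in mG4H and 0.69 ± 0.18 in CON mice. The sequence of this probe is printed in lower case throughout, and its place in the transcript was not assigned.
Cat, dimmer probe, minus strand: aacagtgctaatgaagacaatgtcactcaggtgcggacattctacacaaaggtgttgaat

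Gpx3 is made chiefly by the kidney and secreted into plasma, where it reduces peroxides with glutathione, and the heart also makes it. It was at 3.56, 4.13 and 5.03 at the lowest, median and highest in mG4H STZ mice, against 3.404, 3.52 and 3.68 in mG4H VEH mice. CON STZ mice had levels of 3.72, 4.18 and 4.57, against 3.02, 3.35 and 3.61 in CON VEH mice. The CON groups did not overlap, and in mG4H mice 5 of 6 STZ mice were above the VEH range. The difference was 0.66 ± 0.18 in mG4H mice (adjusted p = 0.110 by limma, n = 6 per group) and 0.85 ± 0.18, a 1.80-fold rise, in CON mice (adjusted p = 0.0102). Leaving out any 1 of the 24 mice kept the CON adjusted p at or below 0.0315. Without mG4H STZ mouse 2, both Cat (0.63, adjusted p = 0.0486 by limma) and Gpx3 (0.78, adjusted p = 0.0244) passed in mG4H mice, as did 627 genes against 75 with it.

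Sod2, which converts superoxide to hydrogen peroxide in the mitochondrial matrix, showed no difference past the threshold. It lay between 8.24 and 8.71 in mG4H STZ mice and between 8.33 and 8.58 in mG4H VEH mice. In CON mice it lay between 8.04 and 8.45 under STZ and between 8.20 and 8.61 under VEH. Its differences were -0.06 ± 0.09 in mG4H and -0.10 ± 0.09 in CON mice, with 95% intervals of -0.26 to 0.13 and -0.30 to 0.09 (adjusted p of 0.855 and 0.818 by limma, n = 6 per group).

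**Figure D2:**
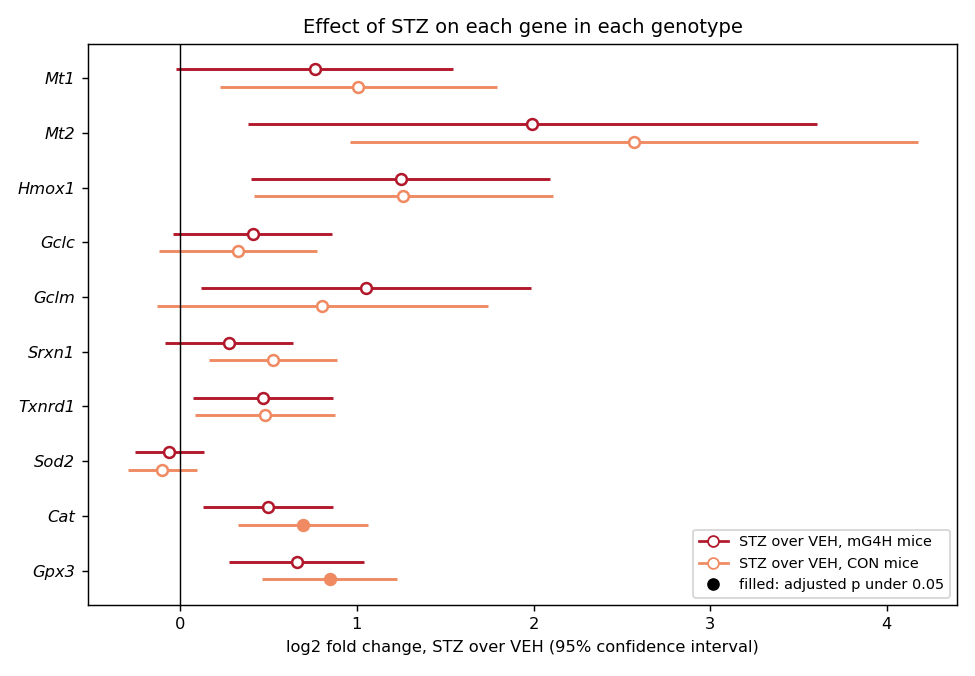
Log2 fold change of each gene in STZ over VEH mice (horizontal axis) with its 95% confidence interval, in mG4H mice (upper, dark red) and CON mice (lower, orange), 6 mice per group. Filled points, Cat at 0.69 and Gpx3 at 0.85 in CON mice, passed an adjusted p of 0.05, and the widest intervals are those of Mt2.

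The calls of Cat and Gpx3 in CON mice depended on several choices of processing. Within slides 1, 2 and 3 the STZ minus VEH difference of Cat was 0.64, 0.49 and 1.01 in CON mice, and that of Gpx3 was 0.38, 0.96 and 1.20, so both were positive on every one of these slides. In mG4H mice on the same slides, Cat differed by 0.84, 0.12 and 0.61 and Gpx3 by 0.64, 0.26 and 1.22. Without slide 4, Cat in CON mice missed the threshold with adjusted p = 0.0588 by limma and Gpx3 passed with 0.0310. With arrays scaled to their median in place of the 75th percentile, Cat and Gpx3 kept differences of 0.65 and 0.80 and neither passed (adjusted p of 0.674 and 0.280). With body weight at 4 weeks as a covariate, they were 0.60 and 0.54 and neither passed (adjusted p of 0.464 and 0.519). Body weight was between 21.1 and 28.1 in STZ and 25.5 and 36.4 in VEH mice, so this covariate is not separate from treatment. The fit with it used 1 slope for all mice. The same covariate put the CON differences of Mt2, Mt1, Gclm, Gclc, Srxn1 and Txnrd1 at 1.35, 0.45, 0.31, 0.12, 0.24 and 0.13, and the mG4H differences of Mt1, Srxn1 and Txnrd1 at 0.49, 0.13 and 0.30. Weights per array put the mG4H differences of Mt1, Hmox1, Gclm, Gclc, Srxn1, Txnrd1 and Cat at 0.50, 0.69, 0.50, 0.07, 0.12, 0.27 and 0.30, and the CON difference of Gclm at 0.53. With median scaling Srxn1 in mG4H mice was at 0.17.

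None of the 10 genes differed past the threshold between mG4H and CON mice, with or without diabetes. Between mG4H STZ and CON STZ mice 0 of 10 members passed, against 0.0106% of all genes, and the log2 differences lay between -0.50 for Mt2 and 0.22 for Gclm. Between mG4H VEH and CON VEH mice 0 of 10 passed, against 0.0815% of all genes, with differences between -0.06 for Hmox1 and 0.19 for Gpx3. At an unadjusted p under 0.05 by limma these counts were also 0 and 0, against 3.55% of all genes under STZ and 2.87% under VEH. For each gene the 4 groups shared 1 estimate of spread, so the wide spread of STZ mice limited the VEH comparison. For Hmox1 its SE was 0.41, although the VEH SDs were 0.16 in mG4H and 0.09 in CON mice. A fit of the VEH groups alone was among the alternatives, and no member passed under VEH in any of them (adjusted p at or above 0.692 by limma). The difference between the STZ effects, mG4H minus CON, was past the threshold for 0 of 10 members and 0% of all genes, and for 0 of 10 members and 1.77% of all genes at an unadjusted p under 0.05 by limma. It ran between -0.57 for Mt2, with a 95% interval of -2.85 to 1.70, and 0.25 for Gclm, with an interval of -1.08 to 1.57. For Cat the interval was -0.72 to 0.33 and for Gpx3 -0.73 to 0.35, so a difference in response as large as the CON effect of Cat itself lies inside the interval. That Cat and Gpx3 passed in CON and not in mG4H mice does not by itself show a difference between the genotypes.

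STZ mice of 1 group differed more among themselves than VEH mice did for all members except Sod2 in CON hearts. In mG4H mice, the SD of Hmox1 was 1.27 under STZ and 0.16 under VEH, 8.01 times as large, and that of Gclm was 1.29 and 0.13, 10.02 times as large. In CON mice, the SD of Hmox1 was 0.70 under STZ and 0.09 under VEH, 7.82 times as large, and that of Mt1 was 0.77 and 0.12, 6.203 times as large. For comparison, the median ratio over all genes was 1.46 in mG4H and 1.21 in CON mice. Hmox1 had a larger ratio than 98.8% of genes in mG4H and 99.6% in CON mice, whereas Sod2 had ratios of 1.91 and 1.0003, above 64.5% and 32.3% of genes. In CON mice, Gpx3 and Gclc had ratios of 1.51 and 1.86, above 67.3% and 78.8% of genes. The SD of Gpx3 in CON STZ mice, 0.297, was below the median of 0.329 over all genes.

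**Figure D3:**
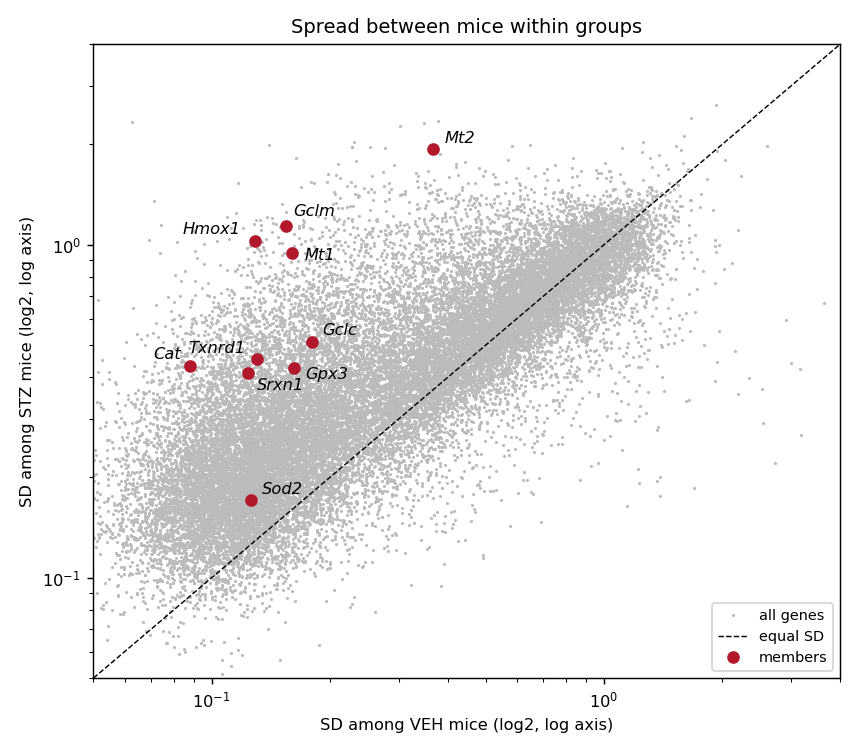
Standard deviation between mice of the same group, pooled over both genotypes, among STZ mice (vertical axis) and VEH mice (horizontal axis), on log axes. Grey points are all genes tested, red points the 10 members, and the dashed line marks equal SD. Mt2, Gclm, Hmox1 and Mt1 lie far above the line and Sod2 near it.

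The highest values came from the same mice. CON STZ mouse 3 had the highest level of its group for all 10 genes, and mG4H STZ mice 3 and 5 were the top 2 of their group for all 10. Relative to the VEH mean of its genotype, Mt2 was 26.1-fold higher in mG4H STZ mouse 3, 27.7-fold in mG4H STZ mouse 5 and 37.3-fold in CON STZ mouse 3. Hmox1 was 5.70-fold, 8.9997-fold and 5.59-fold higher in these mice. At the other end, mG4H STZ mouse 2 was at 0.945 times the VEH mean for Mt2 and 1.06 times for Hmox1. Its blood glucose at 4 weeks was 504, in the unit of the labels, and mG4H STZ mice 6 and 1 were at 500 and 516. All other STZ mice, among them the highest ones and every CON STZ mouse, were at 600 or 601. A relation to blood glucose was not tested. The highest mice were on slide 3 (mG4H STZ mouse 3 and CON STZ mouse 3) and slide 1 (mG4H STZ mouse 5).

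**Figure D4:**
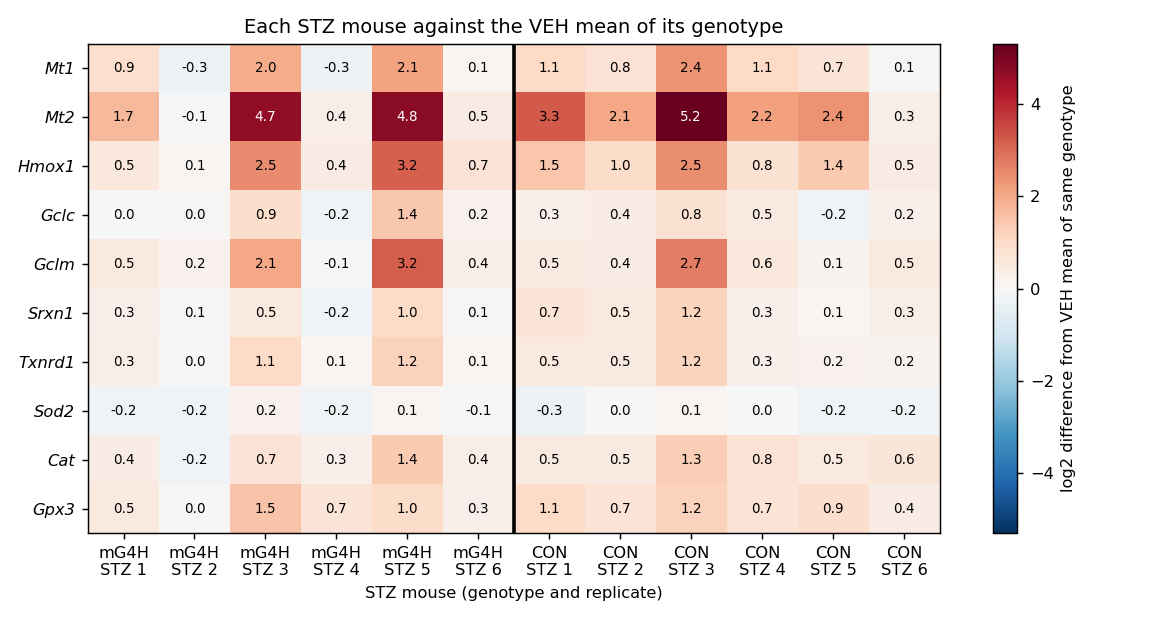
Log2 difference of each STZ mouse (columns, mG4H mice on the left and CON mice on the right, numbered by replicate) from the mean of the 6 VEH mice of its genotype, for the 10 genes (rows). Red is higher and blue lower than VEH; mG4H STZ mice 3 and 5 and CON STZ mouse 3 are high in every gene but Sod2, where they differ by at most 0.24.

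As a description over the 24 arrays, centred on the slide means, Pearson's r between pairs of members other than Sod2 lay between 0.70 and 0.98, with a median of 0.91 over 36 pairs. Pairs with Sod2 lay between 0.0015 and 0.42. These values share arrays, and the group differences and the 3 high mice enter all of them. Within the 12 STZ mice, after centring on group means, the median of the 36 pairs was 0.87, and within the 12 VEH mice it was 0.27. Body weight at 4 weeks also varied between STZ mice. In a limma fit within the 12 STZ mice, chosen after the data were seen, the slope per unit of weight was -0.54 ± 0.19 (SE) for Mt2, -0.12 ± 0.04 for Gpx3 and -0.24 ± 0.10 for Mt1 (unadjusted p of 0.0158, 0.0184 and 0.0375, adjusted p = 0.458 for each), and the other 7 members had an unadjusted p at or above 0.0637. No gene passed in that fit, 0% of all tested, although 10.8% had an unadjusted p under 0.05. Without the 2 mice farthest from the median weight, the slopes were -0.68 ± 0.31 for Mt2, -0.09 ± 0.07 for Gpx3 and -0.34 ± 0.16 for Mt1 (unadjusted p of 0.0561, 0.194 and 0.0565, adjusted p of 0.367, 0.508 and 0.367 by limma). Within the 12 VEH mice, the slopes were 4.6e-05 ± 0.04 for Mt2, -0.009 ± 0.02 for Gpx3 and -0.007 ± 0.02 for Mt1. Txnrd1 had -0.036 ± 0.013 there (unadjusted p = 0.0191, adjusted p = 0.9999 by limma).

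The genes whose levels ran most like those of Mt1, Mt2 and Hmox1 were taken as the 5 non-members with the highest correlation to each. Members were left out of this ranking. Mt1 and Mt2 had r = 0.9793 with each other, above Fkbp5 for Mt1 and Tinagl1 (r = 0.9775) for Mt2. The group differences and the same high mice enter these correlations too. Relative to the VEH mean of its genotype, Fkbp5 was 4.88-fold and 9.47-fold in mG4H STZ mice 3 and 5 and 8.02-fold in CON STZ mouse 3. Over the 24 arrays, centred on slide means, the non-member closest to Mt1 was Pip5k1a (r = 0.986), which makes a membrane phosphoinositide. The next non-member was Fkbp5 (r = 0.9746), a co-chaperone that restrains the glucocorticoid receptor, followed by Plin4, Ppp1r12c and Igf1r. Mt2 was also closest to Pip5k1a (r = 0.990), followed among non-members by Tinagl1, Ppp1r15a, Slc10a6 and Igf1r. Hmox1 was closest to Rad52 (r = 0.981) and Mafk (r = 0.977), a small MAF protein that pairs with NRF2 or BACH1, followed by 2410006H16Rik, Arfgap3 and Pnp2. Fkbp5 lay at 2.21, 2.97 and 5.87 at the lowest, median and highest in mG4H STZ mice, against 2.22, 2.62 and 3.03 in mG4H VEH mice. Its levels in CON STZ mice were 2.50, 3.397 and 5.43, against 2.27, 2.38 and 2.69 in CON VEH mice. Its mean differences of 0.93 ± 0.52 in mG4H and 1.16 ± 0.52 in CON mice did not pass (adjusted p of 0.446 and 0.291 by limma). Fkbp5 was also in a list of 12 glucocorticoid-responsive genes, of which 0 passed in mG4H mice, with a median difference of 0.81, and 1 rose in CON mice, with a median of 0.84. The gene was Pdk4, a kinase that shuts off pyruvate dehydrogenase, which had a difference of 2.01 ± 0.23 in CON mice (adjusted p = 7.17e-05 by limma).

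No regulator listed for these genes passed the test. Of 8 NRF2 regulators, 0 passed in mG4H and 0 in CON mice, with median differences of 0.23 and 0.28. Nfe2l2, the gene for NRF2, differed by -0.04 ± 0.17 in mG4H and 0.34 ± 0.17 in CON mice, and Mafk by 0.87 ± 0.28 and 0.81 ± 0.28 (adjusted p at or above 0.119 by limma). Maff, also in this list, had mean levels of 1.98 in mG4H STZ and 0.89 in mG4H VEH mice. Its means were 1.84 in CON STZ and 0.61 in CON VEH mice. The STZ mice spread widely, with an SD of 1.25, a median of 1.46 and a highest level of 3.88 in mG4H mice. In CON STZ mice the SD, median and highest level of Maff were 0.72, 1.72 and 3.10. Of 14 genes for zinc and metallothionein control that could be measured, 0 passed in either genotype, with medians of 0.12 in mG4H and 0.07 in CON mice. Mtf1, the metal-sensing activator, differed by -0.23 ± 0.08 in mG4H and -0.10 ± 0.08 in CON mice (adjusted p of 0.193 and 0.781 by limma). Nfe2l2, Mafk, Maff and Mtf1 were named after their values had been seen.

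Among 14 measured further targets of NRF2, 0 passed in mG4H mice, whereas 3 rose and 0 fell in CON mice, with median differences of 0.23 in mG4H and 0.33 in CON mice. The 3 were Ephx1, microsomal epoxide hydrolase, with a difference of 0.86 ± 0.16, Me1, the cytosolic malic enzyme that makes NADPH, with 0.47 ± 0.11, and Cbr3, a carbonyl reductase, with 0.31 ± 0.08 (adjusted p of 0.00293, 0.0155 and 0.0228 by limma). Ephx1 lay between 4.47 and 5.16 in CON STZ mice and between 3.62 and 4.10 in CON VEH mice, without overlap.

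Of 12 superoxide and peroxide enzymes outside the 10 members, 0 rose and 1 fell in CON mice: the peroxiredoxin Prdx5, by 0.31 on the log2 scale (adjusted p = 0.0395 by limma). Of 22 measured genes of glutathione synthesis and use, 0 rose and 3 fell in CON mice. They were Gstk1, the mitochondrial and peroxisomal glutathione transferase, at -0.63 ± 0.15, Gsta4, a transferase for lipid aldehydes, at -0.39 ± 0.09, and Chac2, which degrades glutathione, at -0.37 ± 0.09. Chac2 also fell in mG4H mice, by 0.43 (adjusted p = 0.0494 by limma), the 1 gene of the lists to do so. Of 15 measured thioredoxin and glutaredoxin genes, 0 rose and 3 fell in CON mice, namely Msrb2, a mitochondrial methionine sulfoxide reductase, at -0.51 ± 0.10, Sesn3, a sestrin, at -0.54 ± 0.14, and Glrx5, a mitochondrial glutaredoxin for iron-sulfur clusters, at -0.27 ± 0.08. The medians of these 3 lists were -0.08, 0.18 and -0.10 in mG4H and -0.10, 0.05 and -0.13 in CON mice.

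Of 12 genes of haem and iron handling, 2 rose and 0 fell in CON mice: Cp, the ferroxidase ceruloplasmin, at 0.996 ± 0.20 (adjusted p = 0.00659 by limma), and Slc40a1, the iron exporter ferroportin, at 0.49 ± 0.13 (adjusted p = 0.0443). Of 16 measured oxidant-producing enzymes, 1 rose and 0 fell in CON mice, Aox1, an aldehyde oxidase, at 0.66 ± 0.17 (adjusted p = 0.0258 by limma). In mG4H mice, 0 genes of either list passed, and the list medians were 0.05 and 0.03, against 0.04 and 0.22 in CON mice. All these counts stand against the 1.66% of all genes that rose and the 2.29% that fell in CON mice.

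Median sums of adipocyte, macrophage and monocyte, atrial, fibroblast and mesothelial markers were higher in STZ mice, but a linear sum follows the brightest genes of its list. In mG4H mice, the median log2 differences of these lists were, in that order, 0.11, 0.21, -0.08, 0.04 and 0.87. In CON mice they were 0.44, 0.34, 0.17, 0.33 and -0.007. The median mesothelial sums were 8.04 in mG4H STZ, 8.08 in CON STZ, 5.36 in mG4H VEH and 6.17 in CON VEH mice. Only 6 of its 10 markers were above background on every array. The erythroid list had medians of -0.55 in mG4H and -0.49 in CON mice, and the lymphocyte list -0.18 and -0.21. The summed linear level of the 10 adipocyte markers measured on every array, of 12 listed, was between 64.9 and 108 in mG4H STZ, 69.6 and 121 in CON STZ, 53.3 and 62.0 in mG4H VEH and 41.8 and 52.9 in CON VEH mice. Every STZ mouse was above every VEH mouse, and mG4H STZ mouse 3 and CON STZ mouse 3 were the highest of their groups. Of 11 adipocyte markers tested, 0 passed in mG4H mice and 2 rose in CON mice, Cidea by 1.04 and Lipe by 1.11, both named after their values were seen. The sum of 13 macrophage and monocyte markers, of 15 listed, was between 62.6 and 92.1 in mG4H STZ, 71.7 and 94.6 in CON STZ, 56.1 and 66.98 in mG4H VEH and 59.6 and 67.4 in CON VEH mice. The sum of 8 atrial markers was between 75.9 and 535 in mG4H STZ, 93.9 and 374 in CON STZ, 31.8 and 125 in mG4H VEH and 45.4 and 59.4 in CON VEH mice, with the highest value in mG4H STZ mouse 3 and 76.4 in mG4H STZ mouse 5. Nppa, atrial natriuretic peptide, was the 1 atrial marker that rose, by 2.003 in mG4H and 2.36 in CON mice (adjusted p of 0.0494 and 0.00293 by limma). The sum of 12 fibroblast markers was between 642 and 848 in mG4H STZ, 723 and 930 in CON STZ, 605 and 814 in mG4H VEH and 633 and 743 in CON VEH mice, and was lowest of its group in CON STZ mouse 3. Of these markers 0 passed in mG4H mice and 2 rose in CON mice, Mfap5 by 0.84 and Postn by 1.26. In CON mice 1 macrophage marker (Itgam, 0.48) and 1 neutrophil marker (Clec4d, 2.29) also rose and 1 cardiomyocyte marker (Ckm) fell by 0.47, whereas 0 endothelial, lymphocyte, erythroid, smooth muscle or mesothelial markers passed in either genotype. These marker genes were named after their values were seen. The marker counts stand beside 1.66% of all genes that rose and 2.29% that fell in CON mice, and 0.0992% and 0.166% in mG4H mice. The erythroid sum, over 7 of 13 markers, was 136 in mG4H STZ mouse 3 and 1866 in mG4H STZ mouse 2, and lay between 660 and 1299 in all other mice. Of the listed markers on the array, Ngp of the neutrophil list and Epb4.2 of the erythroid list were below background on every array. The part of these cells in the levels of the 10 genes was not tested.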

How the data were processed

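Left ventricles of 24 mice, 6 in each of 4 groups named in the sample titles, were each hybridised to a 1-colour array. Spot intensity, background-corrected by the scanner software (processed signal), was deposited by the authors, with Agilent Feature Extraction 10.5.1.1 per the file headers. The headers place the probes on mouse build mm9. The deposited intensity was not scaled between arrays; it was taken to log2, and the 75th percentile of each array's gene spots was subtracted. Control spots and spots called outliers by the software were left out. Repeated spots of a probe were averaged, probes above background on at least 6 of 24 arrays were kept (39769 probes), and the probe with the highest mean stood for a gene (28237 genes).

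Group means were fitted to all 24 arrays with limma 3.58.1 in R 4.3.3, with 5 contrasts, and the p-values of all 28237 genes were adjusted after Benjamini and Hochberg. The code was tested on simulated data with known changes. The members and the gene lists were chosen with earlier results of these data known. Every member was named, with all its probes. Of each pathway list, up to 4 genes past the threshold in a comparison were named. For Mt1, Mt2 and Hmox1, the 5 genes outside the members with the highest correlation were named. The mice of a group are separate animals, and their number limits the precision. Alternatives covered scaling, background correction (normexp with an offset of 50), filters, probes, separate fits, slide, scan day, replicate block, array weights, body weight and leaving out each mouse. Figures were drawn with matplotlib 3.10.9. Promoter windows came from RefSeq (GRCm38.p6). Exon and UTR positions of the probes were not analysed here.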

Additional observations from a re-analysis of the deposited data

Results flagged for a closer look

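Among the 40 combinations of the 10 genes and 4 groups, a single mouse stood apart from its group in 4, by the gap to the nearest mouse relative to the range of the group. Chance alone gives such a mouse in about 1 in 20 groups, and the values of 1 mouse are not independent of each other. CON STZ mouse 3 accounted for 3 of them: Gclm at 1.05 with the next mouse at -1.08, Txnrd1 at 4.89 with the next at 4.25, and Cat at 4.32 with the next at 3.80. The remaining one was low: Mt2 in mG4H VEH mouse 5 was at 1.97, with the next mouse at 2.87.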

How the results depend on the processing

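The number of members past the threshold for STZ against VEH in CON mice, 2 as reported, was 4 with quantile normalization, 3 with normexp, 0 with median scaling, 2 with slide or scan day as a block, 4 with a fit of these 2 groups alone, 1 without slide 4, 7 with weights per array and 0 with body weight in the model. Leaving out 1 mouse at a time gave between 1 and 5. In mG4H mice the number, 0 as reported, was between 0 and 2 on leaving out 1 mouse, with 2 (Cat at 0.63 and Gpx3 at 0.78) without mG4H STZ mouse 2. Without mG4H STZ mouse 5 it was 5 in CON mice. Over all genes in mG4H mice, 75 passed as reported, 6 with median scaling, 117 with quantile normalization, 123 and 31 with a stricter and no filter on dim probes, 43 and 33 with the mean of probes and each probe alone, 0 in a separate fit, 48 and 28 with slide and scan day as blocks, 23 without slide 4, 227 with weights per array, 17 with body weight and between 17 and 627 on leaving out 1 mouse. In CON mice, 1117 passed as reported, between 636 and 1640 on leaving out 1 mouse, 75 with median scaling, 642 without slide 4, 2393 with weights per array and 168 with body weight. Between mG4H and CON mice, 3 genes (2 higher, 1 lower) passed under STZ and 2 (both higher) with median scaling, with 0 to 14 over the settings other than leaving out mice. Under VEH 23 passed, 8 with median scaling, 100 in a separate fit, 14 without slide 4, 208 with weights per array, 12 with body weight and between 13 and 38 on leaving out 1 mouse. The difference between STZ effects passed for 0 genes, and for up to 6 with weights per array. Median scaling set the median difference of all genes in mG4H mice at -0.05, against 0.06 as reported. Replicate numbers did not pair the mice: between same-numbered mice of different groups the correlation of deviations had a median of 0.0036 and exceeded 0.1 in 16 of 36 pairs. Between mice of different groups on the same slide the median was 0.297, over 0.1 in 50 of 61 pairs. With the replicate block the calls over all genes were 59 in mG4H and 937 in CON mice, and the member counts were 0 and 2. The direction under STZ was the same for all 10 members in every alternative run in both genotypes.

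Some differences of genotype changed sign without passing the threshold. Between mG4H VEH and CON VEH mice, Gclm was 0.019 with median scaling, 0.039 with slide as a block and 0.0068 with weights per array. Hmox1 was 0.035 with slide as a block, and Mt2 was -0.14 with weights per array. When body weight was included, Mt1, Mt2, Gclc, Srxn1, Txnrd1 and Gpx3 were -0.34, -0.75, -0.085, -0.042, -0.17 and -0.014. Between mG4H STZ and CON STZ mice, Gpx3 was -0.035 with quantile normalization, -0.014 with median scaling and -0.10 with weights per array. These weights gave -0.13 for Gclc, -0.022 for Gclm and -0.088 for Txnrd1, the mean of probes gave 0.069 for Hmox1, and body weight gave -0.0017 for Txnrd1 and -0.048 for Gpx3. For the difference between STZ effects, Sod2 was -0.027 with median scaling and -0.023 with weights per array. Hmox1 was 0.0037 with normexp, 0.17 with the mean of probes, 0.19 with body weight and 0.056 without slide 4. Weights per array gave -0.26 for Gclc and -0.029 for Gclm, and body weight gave 0.032 for Mt1, 0.041 for Mt2 and 0.17 for Txnrd1.

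On leaving out 1 mouse, some values crossed 0. Between mG4H VEH and CON VEH mice, Mt1 was between -0.015 and 0.080 and Gclm between -0.068 and 0.025. Between mG4H STZ and CON STZ mice, Mt1 was between -0.49 and 0.067, Mt2 between -1.06 and 0.030, Hmox1 between -0.45 and 0.17, Gclc between -0.067 and 0.26, and Gclm between -0.21 and 0.60. There, Srxn1 was between -0.24 and 0.034, Txnrd1 between -0.090 and 0.20, Cat between -0.28 and 0.027, and Gpx3 between -0.16 and 0.13. For the difference between STZ effects, Mt1 was between -0.52 and 0.031, Hmox1 between -0.40 and 0.23, Gclc between -0.12 and 0.21, Gclm between -0.18 and 0.63, Txnrd1 between -0.16 and 0.13, and Sod2 between -0.021 and 0.081. The cause was not tested for any of these changes, and the number of mice limits the precision.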
